A study of Mus musculus with 16 samples.

Results

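Fat of the retroperitoneal depot, a visceral depot along the back wall of the abdomen, was profiled 1 h and 3 h after an injection of dihydrotestosterone (DHT), and these arrays were compared with arrays from vehicle-treated mice. The comparison took the 4 arrays whose titles give 1 h or 3 h of DHT and the 4 control arrays of gonadectomised mice given vehicle, 8 of the 16 arrays in the series. The other 8 arrays belong to later times and were used here as a reference and in fits made as alternatives, with and without 1 doubtful vehicle array. Both sexes entered 1 fit with sex as a covariate. All mice, the vehicle-treated ones included, were gonadectomised. DHT groups received 0.1 mg under the skin, 1 h or 3 h before necropsy. Each sex had 2 vehicle arrays and 1 array at each DHT time. The labels give the vehicle samples 24 h before necropsy, without saying whether this is when the vehicle was injected. If so, time since injection differs between vehicle and DHT arrays and cannot be told apart from DHT. No strain and no age are given. The labels' protocols describe collection by group, not by mouse, and an array may therefore hold RNA pooled from several animals. Whether the 2 vehicle arrays of either sex are separate animals or pools is not stated, so p-values reflect the scatter of these arrays alone, and that scatter may be technical.

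DHT is the androgen made from testosterone by 5-alpha reduction, and it cannot be turned into an oestrogen. It binds the androgen receptor, which moves to the nucleus and binds DNA at response elements that it largely shares with the glucocorticoid and progesterone receptors. Targets of this receptor family include the chaperone gene Fkbp5, the metallothioneins and several brakes on growth signalling. Immediate early genes such as Fos and Egr1 respond within minutes to many growth and stress signals without new protein synthesis.

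The upstream sequences of 3 of the genes described below are printed first, because Gadd45g stood above every vehicle array at 1 h, and Fkbp5 and Mt2 did so in both sexes at 3 h. Each run gives the 250 bases before the annotated start, 5′ to 3′ on the gene's strand, from RefSeq promoter windows of build GRCm38.p6. They lie at chr13:51846425-51846674 (plus strand) for Gadd45g, chr17:28486150-28486399 (minus strand) for Fkbp5 and chr8:94172368-94172617 (plus strand) for Mt2. Capitals mark matches on either strand to TGCACNC or TGCGCNC, the core of the metal response element.
Gadd45g: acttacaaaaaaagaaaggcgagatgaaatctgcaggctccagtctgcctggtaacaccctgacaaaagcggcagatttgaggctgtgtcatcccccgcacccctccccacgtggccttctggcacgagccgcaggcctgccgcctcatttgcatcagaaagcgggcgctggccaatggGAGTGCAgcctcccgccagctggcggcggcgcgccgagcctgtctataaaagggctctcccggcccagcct
Fkbp5: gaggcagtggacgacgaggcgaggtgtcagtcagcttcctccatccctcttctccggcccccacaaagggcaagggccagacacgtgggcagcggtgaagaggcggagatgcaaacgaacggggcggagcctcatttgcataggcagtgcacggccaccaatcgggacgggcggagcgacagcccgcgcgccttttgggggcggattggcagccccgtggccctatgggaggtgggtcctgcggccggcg
Mt2: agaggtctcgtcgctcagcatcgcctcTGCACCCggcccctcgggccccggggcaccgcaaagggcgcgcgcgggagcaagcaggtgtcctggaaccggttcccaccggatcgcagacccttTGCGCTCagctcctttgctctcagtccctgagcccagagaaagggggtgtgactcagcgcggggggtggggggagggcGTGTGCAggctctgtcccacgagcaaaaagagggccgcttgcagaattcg

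The Mt2 window held 3 matches to this core, the Gadd45g window 1 and the Fkbp5 window 0. At least 1 match occurs in 21.4% of the 32851 windows of this length. AGAACA, a half-site of the steroid response element, was searched on both strands and had 0 matches in these 3 windows, against 16.1% of all windows. Its inverted repeat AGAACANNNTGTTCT had 0 matches here and occurs in 0.00913% of windows. The searched motifs did not overlap in the printed runs. These matches describe letters in a short window and nothing about binding.

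The arrays were checked before the comparison. Signals are MAS5 intensities, scaled by the authors to the same trimmed mean on each array. Median signals of the 16 arrays lay between 184 and 220. The number of arrays limits the precision. Replicate 2 of the male vehicle arrays had been singled out beforehand by very high Myh1 and Ryr1 and low Adipoq. These genes are in the marker lists used next, so its marker means are no independent support. Its skeletal muscle markers had a mean log2(signal + 16) of 14.2, against 10.1 to 11.4 on the other 7 arrays of the comparison. Its adipocyte markers, the defining genes of the labelled tissue, averaged 9.94 on the same scale against 12.2 to 12.8. Its correlation with any other array was at most 0.661 across genes, which are not independent replicates. As planned beforehand, the comparisons were made with all 8 arrays and with the 7 arrays left without it. Where 2 log2 changes of a gene are joined by "and with 7" or "and with 8", they come from these fits, and ± is limma's standard error. Because the RNA is from whole fat, fewer cells of a type and less RNA per cell cannot be told apart.

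**Figure D1:**
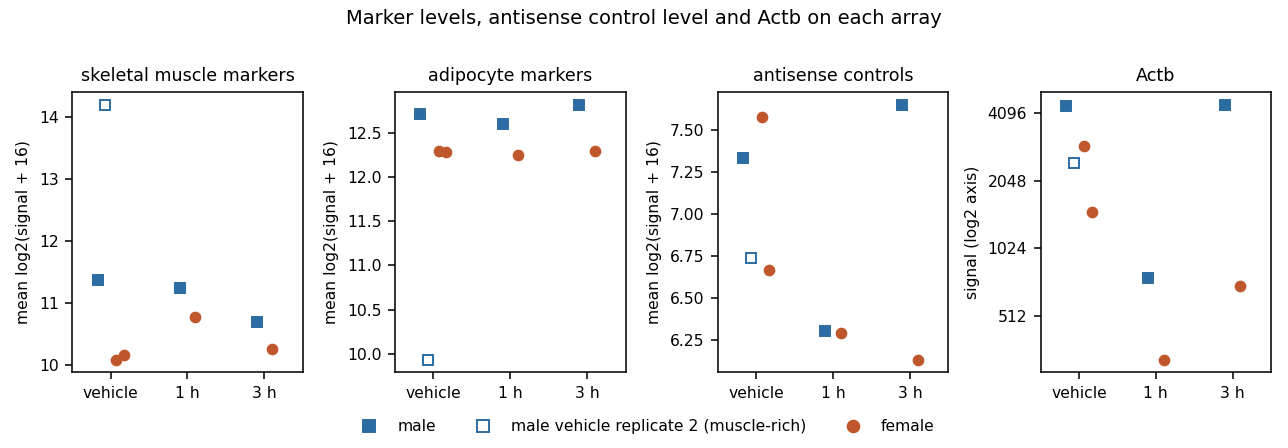
Mean log2(signal + 16) of skeletal muscle markers, adipocyte markers and 15 antisense control probe sets, and the signal of Actb on a log2 axis, for each of the 8 arrays by group (squares, males; circles, females; open square, male vehicle replicate 2). The open square lies at 14.2 for muscle and 9.94 for adipocyte markers, and the antisense level is between 6.13 and 6.30 on both 1 h arrays and the female 3 h array but 7.65 on the male 3 h array.

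The comparison asks which genes moved first after the androgen. No gene passed limma's test at an adjusted p under 0.05 over 4950 genes, with 8 or with 7 arrays (0.0% called in either direction). At an unadjusted p under 0.05 limma gave 44 genes (0.889%) with 8 arrays and 82 (1.66%) with 7. These shares, and those given below for single times and for sex, are smaller than the nominal share of 0.05 when no gene changes. In the fits reported they are therefore no sign of an excess of changed genes, and the cause of the shortfall was not tested. This depended on the model. With the mean level of the antisense control probe sets as a covariate, limma gave 402 genes with 8 arrays and 382 with 7. Those counts are above the nominal share, and their cause was not tested either. Gadd45g, Errfi1 and Cebpd had the smallest p on the high side in both fits. When the later DHT arrays were added to the fit to widen the estimate of spread, Gadd45g passed with all arrays (1 gene higher, 0.0202% of those tested). Gadd45g and Errfi1 passed in that wider fit without the muscle-rich array (2 genes, 0.0404%).

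Gadd45g, a stress-inducible regulator of growth arrest, had signals of 386 and 357 on the male vehicle arrays and 308 and 354 on the female ones. After DHT it had 1087 at 1 h and 1645 at 3 h in males, and 794 at 1 h and 1156 at 3 h in females. Every DHT array lay above every vehicle array, and the 3 h array was the higher one in both sexes. The means were 351 ± 32.6 (SD, n = 4) and 1170 ± 353 (SD, n = 4). Its log2 change was 1.65 ± 0.21 (SE) with 8 arrays, 3.14-fold on the log2(signal + 16) scale, with a limma adjusted p of 0.246. With 7 arrays it was 1.60 ± 0.21, with a limma adjusted p of 0.172. In the fit with the later times it rose by 1.65 ± 0.18 with a limma adjusted p of 0.00753, and by 1.57 ± 0.18 (adjusted p = 0.00613) without the muscle-rich array. On the 8 arrays of later times its signal lay between 435 and 1758.

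Errfi1 encodes an inhibitor of the epidermal growth factor receptor. Its vehicle signals were 852 and 695 in males and 771 and 862 in females. The DHT signals were 1604 at 1 h and 1406 at 3 h in males, and 1583 and 1547 in females. The 4 DHT arrays lay close together and all above the vehicle arrays, with means of 1535 ± 89.0 and 795 ± 77.8 (SD, n = 4 each). The log2 change was 0.94 ± 0.16 with 8 arrays (limma adjusted p = 0.902) and 0.88 ± 0.13 with 7 (limma adjusted p = 0.261). In the 7-array comparison fitted with the later times Errfi1 rose by 0.87 ± 0.13, with a limma adjusted p of 0.0443. A second probe set of the gene ran from 471 to 712 on vehicle arrays and from 1198 to 1323 on DHT arrays.

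Cebpd is a transcription factor of the first wave of fat cell differentiation and of acute responses to steroids and cytokines. Its signals were 852 and 822 in vehicle males and 666 and 777 in vehicle females. After DHT they were 1590 and 1319 in males and 1286 and 1659 in females, at 1 h and 3 h in turn. Again every DHT array was above every vehicle array. Males were higher at 1 h than at 3 h and females the other way round. This gave a log2 change of 0.89 ± 0.18 with 8 arrays (limma adjusted p = 0.902) and 0.90 ± 0.16 with 7 (limma adjusted p = 0.572).

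Cdkn1a, the cyclin-dependent kinase inhibitor p21, had vehicle signals of 421 and 235 in males and 321 and 400 in females. It had 550 at 1 h and 814 at 3 h in males, and 583 and 604 in females. The groups did not overlap, and the log2 change was 0.88 ± 0.24 with 8 arrays and 0.68 ± 0.18 with 7. A second Cdkn1a probe set did not share the direction, with a difference of -0.12 on the log2 scale with 8 arrays and -0.20 with 7.

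Ddit4, an inhibitor of mTOR signalling that glucocorticoids are known to induce, had vehicle signals of 634 and 298 in males and 491 and 651 in females. Its DHT signals were 1162 and 792 in males and 867 and 913 in females. All DHT arrays exceeded all vehicle arrays. Ddit4 had a log2 change of 0.88 ± 0.28 with 8 arrays and 0.62 ± 0.18 with 7, and neither passed.

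**Figure D2:**
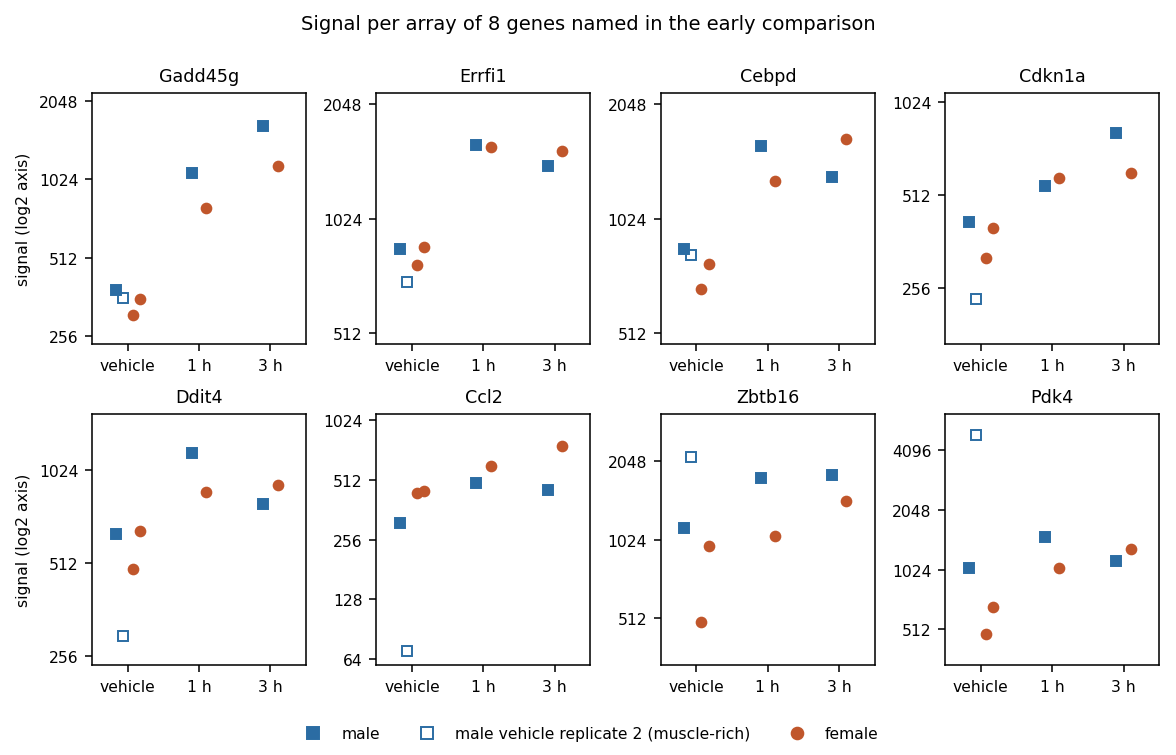
Signals on a log2 axis of 8 genes on each vehicle, 1 h and 3 h array (squares, males; circles, females; open square, male vehicle replicate 2). For Gadd45g the DHT arrays lie between 794 and 1645 and the vehicle arrays between 308 and 386. For Errfi1, Cdkn1a, Ddit4, Ccl2, Zbtb16 and Pdk4 the open square lies outside the range of the other 3 vehicle arrays.

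Fkbp5 and Mt2 stood above the vehicle arrays of both sexes at 3 h but not at 1 h. No gene passed limma's adjusted test between these times. Fkbp5 encodes a chaperone that restrains steroid receptors and is itself a receptor target. Its vehicle signals were 714 and 907 in males and 332 and 552 in females. At 1 h they were 829 in males and 515 in females, within the range of the vehicle arrays. At 3 h they were 1493 and 1240, above every vehicle and every 1 h array. Against vehicle it differed by a log2 change of 0.15 ± 0.30 at 1 h and 1.19 ± 0.30 at 3 h, and the 3 h array exceeded the 1 h array by 1.04 ± 0.34 (limma adjusted p = 0.982 at 3 h). With 7 arrays the changes were 0.26 ± 0.25 and 1.30 ± 0.25. On the later arrays the signal stayed between 1102 and 2755.

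Mt2, a metal-binding protein gene induced by metals and glucocorticoids, had vehicle signals of 1945 and 987 in males and 1436 and 1642 in females. The 1 h signals were 2147 in males and 1263 in females, and the 3 h signals were 4798 and 3400. Only the 3 h arrays lay clear of the vehicle arrays in both sexes. The Mt2 log2 change was 0.17 ± 0.36 at 1 h and 1.46 ± 0.36 at 3 h with 8 arrays. With 7 arrays it was -0.10 ± 0.17 and 1.19 ± 0.17. The difference of 3 h from 1 h was 1.29 ± 0.42 (limma adjusted p = 1.00). All later arrays lay between 3374 and 10010. Mt1, its close neighbour in sequence and function, had a log2 change of 0.45 ± 0.86 at 1 h and 1.30 ± 0.86 at 3 h, which became -0.34 ± 0.26 and 0.52 ± 0.26 with 7 arrays. Mt1 and Mt2 are related in sequence, and how far their probe sets tell them apart was not tested and is uncertain.

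**Figure D3:**
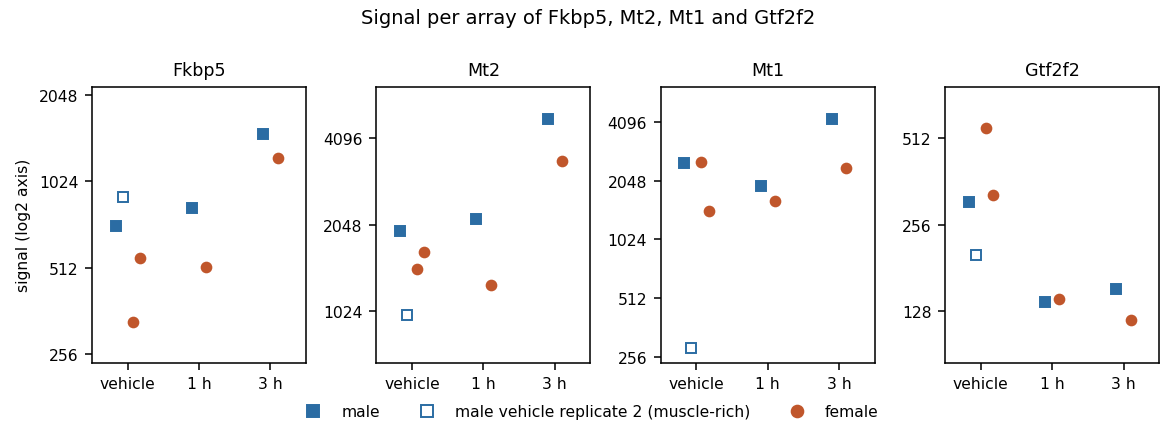
Signals on a log2 axis of Fkbp5, Mt2, Mt1 and Gtf2f2 on each of the 8 arrays (squares, males; circles, females; open square, male vehicle replicate 2). Fkbp5 and Mt2 reach 1240 to 1493 and 3400 to 4798 at 3 h only, and all DHT arrays of Gtf2f2 lie between 119 and 152.

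At the separate times limma again called 0 genes. Unadjusted p under 0.05 was reached by 43 genes (0.869%) at 1 h, 32 (0.646%) at 3 h and 19 (0.384%) between 3 h and 1 h. At 1 h Gadd45g (1.37 ± 0.22), Errfi1 (0.99 ± 0.23) and Cebpd (0.87 ± 0.25) had the smallest p on the high side. With 7 arrays the 1 h changes of these genes were 1.31 ± 0.19, 0.93 ± 0.17 and 0.88 ± 0.21. At 3 h the leading genes were Gadd45g (1.93 ± 0.22, and 1.88 ± 0.19 with 7 arrays), Mt2 and Fkbp5. Gadd45g was the 1 gene that passed at 3 h in the fit with the later times (adjusted p = 0.0119 by limma, 0.00696 without the muscle-rich array). On the low side at 3 h stood Gtf2f2, the tubulin cofactor gene Tbcb (-0.93 ± 0.30) and Cln8 (-1.39 ± 0.45). With 7 arrays Tbcb was at -0.78 ± 0.27 and Cln8 at -1.27 ± 0.44. Cln8, an endoplasmic reticulum membrane protein gene, was at 75.0 on the male 3 h array and 188 on the female one, with vehicle signals from 195 to 518. The genes that separated 3 h from 1 h were Klf13, the cell cycle inhibitor Cdkn2d (1.81 ± 0.50) and Mt2 on the high side. On the low side they were Pik3cd (-1.26 ± 0.40), which encodes a catalytic subunit of phosphoinositide 3-kinase, the heparan sulphate proteoglycan gene Sdc2 (-1.003 ± 0.33) and Cln8 (-1.56 ± 0.52). For Pik3cd and Sdc2 the male 3 h array was the low one, at 65.4 and 217. Without the male 3 h array the difference of Pik3cd was -0.61, that of Sdc2 -0.52 and that of Cln8 -0.98, and without the female 3 h array they were -1.91, -1.49 and -2.15. The 3 h change of Cln8 ranged from -1.98 to -0.81 and the difference of Klf13 between 3 h and 1 h from 1.74 to 3.80 when single arrays were left out.

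Among the genes lower after DHT, Gtf2f2, which encodes a subunit of the general transcription factor TFIIF, stood first in both fits. Its vehicle signals were 306 and 200 in males and 556 and 325 in females. The DHT signals were 138 and 152 in males and 140 and 119 in females. All DHT arrays were lower than all vehicle arrays, and they were closer to each other than the vehicle arrays were. The difference was a log2 change of -1.16 ± 0.28 with 8 arrays (limma adjusted p = 0.902) and -1.36 ± 0.25 with 7 (limma adjusted p = 0.572).

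The other low genes of the 8-array fit were Cryge (-0.98 ± 0.30), Mgp (-0.75 ± 0.25), Pold2 (-0.76 ± 0.28), Hdgfl2 (-0.57 ± 0.20) and Cops7a (-0.55 ± 0.20). With 7 arrays their changes were -0.83, -0.56, -0.49, -0.56 and -0.41. Cryge encodes a lens crystallin of a family of near-identical genes. Its signals were 152 to 322 on vehicle and 85.5 to 172 on DHT arrays, and other Cryge probe sets gave log2 differences of 0.03, -0.82 and 0.23. Mgp, an inhibitor of calcification, had 882 and 1362 in vehicle males against 538 and 483 after DHT, and 1899 and 3143 in vehicle females against 1806 and 1852. The order of the low genes depended on the muscle-rich array: Cops7a and Pold2, at 1242 and 813 on that array, were lower on each of the other 3 vehicle arrays. In the 7-array fit the low genes after Gtf2f2 were Gpsm3 (-0.76 ± 0.20), Wbp1 (-0.55 ± 0.16), Cel (-0.52 ± 0.15), the receptor gene Notch2 (-0.58 ± 0.18) and the chemokine gene Ccl6 (-0.50 ± 0.16). With 8 arrays their log2 changes were -0.45, -0.34, -0.30, -0.18 and -0.22. A second Notch2 probe set differed by 0.00 with 7 arrays. Second probe sets of Gpsm3 and Cops7a did not share the direction with 7 arrays. That of Gpsm3 differed by 0.19 with 7 arrays and 0.42 with 8, and that of Cops7a by 0.27 and -0.02.

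On the high side, the 8-array fit also put forward Glipr2 (1.32 ± 0.36) and the phospholipase gene Pla2g6 (0.84 ± 0.24), and with 7 arrays they had 1.24 and 0.68. Glipr2 had vehicle signals of 204, 170 and 227 but 803 on female replicate 2, which overlaps its DHT signals of 461 to 1042. The 7-array fit put forward the chemokine gene Ccl2 and the quinone reductase gene Cryz (0.54 ± 0.15, and 0.40 with 8 arrays). Ccl2, which attracts monocytes, had 311 and 70.8 in vehicle males and 437 and 452 in vehicle females, and 491, 455, 604 and 762 after DHT. Its log2 change was 1.06 ± 0.41 with 8 arrays and 0.59 ± 0.16 with 7.

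Genes were then counted by array order. With 8 arrays, 131 of the 4950 genes (2.65%) had both DHT arrays of each sex above every vehicle array of that sex, and 50 (1.01%) had them below. With 7 arrays these numbers were 230 (4.65%) and 126 (2.55%). With so few arrays per sex such an order also arises at random, and the counts were not tested against that. They are therefore no evidence of a response. Over all genes tested, 56.9% of log2 changes were above 0 with 8 arrays and 54.3% with 7, and the medians were 0.05 and 0.02.

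Of 38 listed targets of steroid response elements, 35 were on the array and 31 were tested. No member passed limma's test. An unadjusted p under 0.05 in limma was reached by 6 with 8 arrays and 8 with 7, all of them on the high side. Of all genes, 0.889% and 1.66% reached it in either direction. The log2 change was above 0 for 26 of 31 with 8 arrays (56.9% of all genes) and 29 of 31 with 7 (54.3%). The median was 0.47 with 8 and 0.28 with 7. By time, 27 of 31 were above 0 at 1 h (58.8% of all genes) and 24 at 3 h (55.3%), with medians of 0.33 and 0.59. By array order 6 members were higher with 8 arrays and 10 with 7, beside 2.65% and 4.65% of all genes, and 0 were lower. The list was chosen with earlier results of these data known, so its direction is no independent evidence.

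Beside the genes above, Zbtb16, a zinc finger repressor induced by steroids, had 1139 and 2134 in vehicle males and 493 and 968 in vehicle females. After DHT it had 1763 and 1819 in males and 1061 and 1444 in females. It was higher than vehicle replicate 1 in males and than both vehicle arrays in females. Its log2 change was 0.51 ± 0.31 with 8 arrays and 0.75 ± 0.23 with 7. A second Zbtb16 probe set of lower signal differed by 0.19 with 8 arrays and 0.07 with 7. Pdk4, the kinase that shuts down pyruvate dehydrogenase, had 1048 and 4882 in vehicle males and 485 and 662 in vehicle females. It had 1497 and 1136, and 1049 and 1296, after DHT. Its log2 change was 0.12 ± 0.53 with the muscle-rich array and 0.74 ± 0.21 without it. Map3k6, a stress-activated kinase gene, had 0.64 ± 0.28 with 7 arrays and 1.08 ± 0.44 with 8.

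Other members differed less. Sgk1, a kinase that acts in salt transport and cell survival, had 0.32 ± 0.18 with 7 arrays and -0.21 ± 0.46 with 8. Nfkbia, the inhibitor of NF-kappaB, had 0.21 ± 0.14 and with 8 arrays 0.30 ± 0.17. The clock gene Per1 was at 0.80 at 1 h and -0.15 at 3 h with 7 arrays, and at 0.43 and -0.52 with 8. Igf1, the growth factor, had 0.27 ± 0.20 with 7 arrays and 1.28 ± 0.82 with 8, and a second Igf1 probe set differed by -0.11 and 0.10. The 2 members below 0 with 7 arrays were the sulphotransferase gene Sult1a1 (-0.16 ± 0.15) and Lrg1 (-0.18 ± 0.14), which encodes a secreted acute-phase glycoprotein, and with 8 arrays these had 0.32 and 0.37.

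Immediate early genes mostly overlapped between the groups, as did most genes tested. Of 56 listed, 49 were on the array and 38 were tested, and 0 had an adjusted or unadjusted p under 0.05 in limma with 8 or 7 arrays. The log2 change was above 0 for 27 of 38 with 8 arrays (56.9% of all genes) and 23 of 38 with 7 (54.3%). The medians were 0.21 and 0.14. By array order 1 member was higher and 1 lower in either comparison. Of all genes, 2.65% were higher and 1.01% lower with 8 arrays, and 4.65% and 2.55% with 7. Fos, a subunit of AP-1, had vehicle signals of 377, 268, 504 and 1180 and DHT signals of 697, 346, 899 and 918, so that the groups overlapped. Its log2 change with 7 arrays was 0.29 ± 0.32 and with 8 it was 0.42 ± 0.33. The following values are from 7 arrays, with those from 8 arrays after each. The zinc finger gene Egr1 had 0.20 ± 0.19 (0.24) and the stress factor gene Atf3 0.29 ± 0.21 (0.24). Fosb had 0.15 ± 0.17 (0.21), Fosl2 0.57 ± 0.31 (0.38) and Jun -0.23 ± 0.23 (-0.09), all of them AP-1 subunits. Klf6, a zinc finger factor, had 0.26 ± 0.24 (0.56), and Mcl1, an anti-apoptotic protein gene, had 0.33 ± 0.18 (0.11).

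Of the growth arrest and feedback regulators, of which 28 were listed, 24 were on the array and 21 were tested, and none passed limma's adjusted test in either fit. An unadjusted p under 0.05 was reached by 4 with 8 arrays and 5 with 7, all higher, beside 0.889% and 1.66% of all genes. The log2 change was above 0 for 12 of 21 and 11 of 21, with medians of 0.26 and 0.06, shares near those of all genes (56.9% and 54.3%). By array order 5 were higher in both comparisons (2.65% and 4.65% of all genes), and 0 with 8 and 1 with 7 were lower (1.01% and 2.55%). The high members were those described above (Gadd45g, Errfi1, Cdkn1a, Ddit4) and, with 7 arrays, the cytokine signalling inhibitor Socs2 (0.51 ± 0.21, and 0.28 with 8). Gadd45a, the sister gene of Gadd45g, had vehicle signals of 262, 587, 306 and 516 and DHT signals of 263, 121, 370 and 260. Its log2 change was -0.41 ± 0.30 with 7 arrays and -0.70 ± 0.37 with 8. The phosphatase gene Dusp1, which switches off MAP kinases, had 0.19 ± 0.18 and with 8 arrays 0.09 ± 0.23.

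The remaining pathway lists held no gene past the adjusted threshold in limma. Steroid receptors, chaperones and steroid enzymes (11 tested) had 10 changes above 0 with 8 arrays and 9 with 7, with medians of 0.19 and 0.15. The corepressor gene Nrip1 had 0.52 ± 0.25 and the chaperone gene Hspa8 0.30 ± 0.15 with 7 arrays, and with 8 they had 0.78 and 0.03. The circadian clock (13 tested) had 7 and 8 above 0 and medians of 0.01 and 0.08. Its repressors Nr1d1 and Cry1 had -0.59 ± 0.33 and 0.21 ± 0.15 with 7 arrays, and -0.60 and 0.03 with 8. Heat shock and unfolded protein genes (23 tested) had 15 above 0 in both fits and medians of 0.25 and 0.13. The chaperone gene Hspa1a had 0.58 ± 0.21 with 7 arrays and Hmox1, which degrades haem, had 0.30 ± 0.13, and with 8 arrays they had 0.34 and 0.58.

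The lists of fat cell metabolism depended on the muscle-rich array. Fatty acid and triglyceride synthesis (20 tested) had 18 changes above 0 and a median of 0.54 with 8 arrays, but 8 and -0.02 with 7. Lipolysis and its receptors (14 tested) had 13 and 0.90, then 9 and 0.11. Adipokines (11 tested) had 8 and 0.69, then 6 and 0.02. Adipocyte transcription factors (20 tested) had 15 and 0.26, then 10 and 0.00. Insulin and IGF signalling (19 tested) had 11 and 0.12, then 8 and -0.08. Inflammation and acute phase genes (21 tested) had 18 and 0.30, then 10 and -0.03.

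Single genes of these lists had the same array apart. Adipoq, which encodes adiponectin, had 26828 and 1946 in vehicle males, 26610 and 19401 in vehicle females, and 19216 to 31645 after DHT. The vehicle array at 1946 is the muscle-rich one, and the log2 change was 0.83 ± 0.78 with it and -0.13 ± 0.17 without it. Plin2, a lipid droplet coat protein gene, had 0.98 ± 0.64 and 0.20 ± 0.14. Cidea, another droplet protein gene, had 1.04 ± 0.56 and 0.38 ± 0.23. Lpin1, a phosphatidate phosphatase of triglyceride synthesis, had 0.40 ± 0.15 and the fatty acid transporter gene Slc27a1 had -0.27 ± 0.16 with 7 arrays, and 0.31 and 0.44 with 8. Of the insulin and IGF list, the phosphatase gene Ptpn1 had 0.57 ± 0.25 and the binding protein gene Igfbp3 -0.81 ± 0.30 with 7 arrays, and 0.79 and -0.74 with 8. Leaving out single arrays brought Ptpn1 down to 0.29 and Igfbp3 to -0.37. The differentiation factor Ebf2 had -0.58 ± 0.28 with 7 arrays and -0.38 with 8, and the secreted factors Nampt and Vegfa had 0.20 ± 0.15 and -0.20 ± 0.15 with 7 and -0.17 each with 8.

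**Figure D4:**
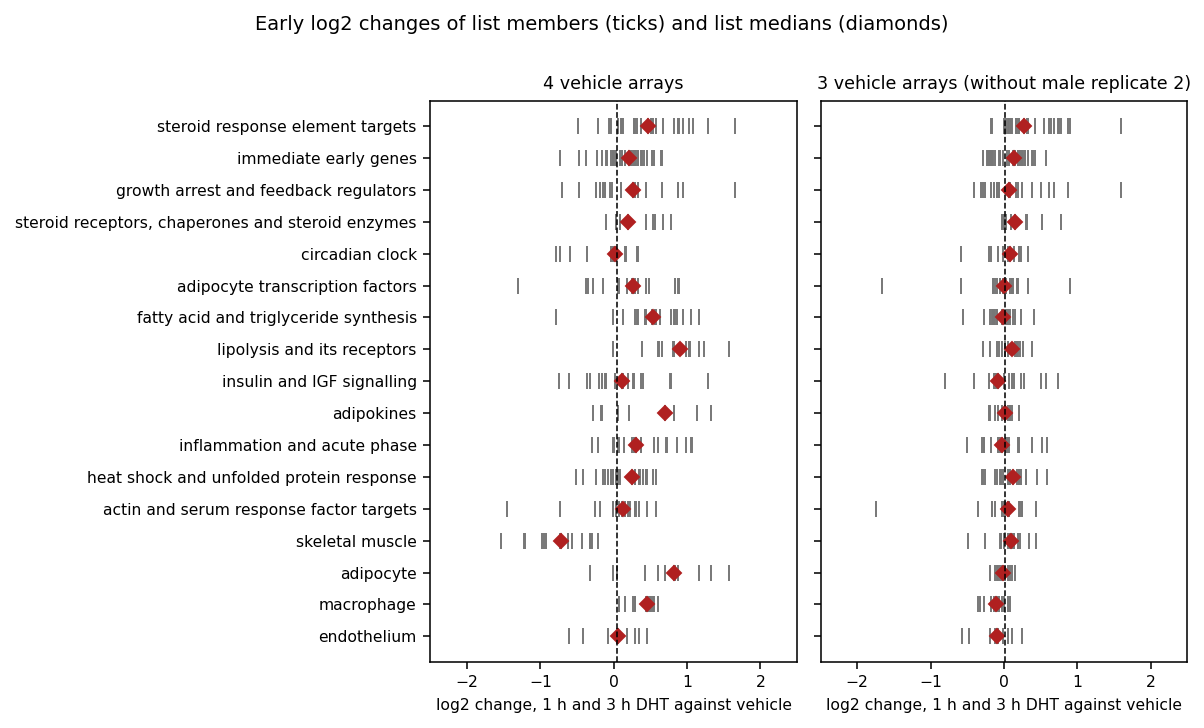
Log2 changes of tested list members (ticks, 1 per gene) and list medians (diamonds) for the pooled 1 h and 3 h DHT arrays against 4 vehicle arrays (left) and 3 vehicle arrays (right), for lists with at least 10 tested members; the dashed line is the median of all 4950 genes. Lipolysis moves from a median of 0.90 to 0.11 and skeletal muscle from -0.72 to 0.09, while steroid response targets have 0.47 and 0.28.

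The marker lists of cell types were compared in the same way. Skeletal muscle (17 tested) had 0 changes above 0 and a median of -0.72 with 8 arrays, and 13 and 0.09 with 7. Its gene Actn3 had 32791 on the muscle-rich array and 1265 to 3828 on the other 7. Adipocyte markers (13 tested) had 11 above 0 and a median of 0.82, then 5 and -0.01, with Fabp4 at -0.01 and -0.18. Macrophage markers (14 tested) had 14 and 0.45, then 2 and -0.10, with Adgre1 at 0.07 and -0.35 and C1qb at 0.26 and -0.32. Endothelium (10 tested) had 7 and 0.05, then 3 and -0.10. Erythrocyte genes (3 tested) had 3 and 0.72, then 3 and 0.22, with Hbb-b2 at 0.76 and 0.33. Brown adipocyte genes (3 tested) had 2 and 1.04, then 3 and 0.38. Ucp1, which uncouples respiration, ran from 35.8 to 350 on vehicle arrays and from 18.7 to 1422 on DHT arrays. B cell markers (4 tested) had 4 and 2 changes above 0, and adrenal markers (3 tested) had 1 and 2. T cell and mesothelium markers had 1 tested gene each, and kidney markers had 0 of 8 on the array above the level for testing.

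No smooth muscle or pancreas marker passed the adjusted test in limma. Smooth muscle (8 tested) had 5 changes above 0 with 8 arrays and 7 with 7, with medians of 0.05 and 0.25. Acta2, its actin, had 788 and 691 in vehicle males, 1290 and 1276 in vehicle females, and 892, 970, 1674 and 2202 after DHT. Acta2 had 0.44 ± 0.15 and the myosin kinase gene Mylk 0.33 ± 0.12 with 7 arrays (0.45 and 0.40 with 8), and both were higher on each DHT array than on the vehicle arrays of its sex. The mean log2 level of the list overlapped between groups, from 9.17 to 9.96 on vehicle and 9.15 to 10.4 on DHT arrays. Exocrine pancreas genes (5 tested) had 1 change above 0 with 8 arrays and 0 with 7, with medians of -0.37 and -0.58. Their mean level was 10.1 and 9.87 on the female vehicle arrays and 7.68 to 9.29 on the other 6, where male vehicle replicate 1 (8.99) lay among the DHT arrays (8.72 to 9.29). Cel and Cela2a, which encode digestive enzymes, and Reg1 belong to them, with -0.52 ± 0.15, -0.60 ± 0.24 and -0.58 ± 0.26 with 7 arrays and -0.30, -0.47 and -0.44 with 8. How far cell content contributed to any gene's change was not tested.

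Actb and Klf13 were the low genes with the smallest p at 1 h, at -2.35 ± 0.52 and -2.69 ± 0.66. With 7 arrays they were at -2.65 ± 0.40 and -3.04 ± 0.55. Actb had vehicle signals of 4394, 2450, 2917 and 1492. After DHT it had 758 at 1 h and 4449 at 3 h in males, and 327 and 698 in females. Both 1 h arrays and the female 3 h array were low and the male 3 h array was not. Klf13, a zinc finger factor, had the same order, with 369 to 1227 on vehicle arrays and 101, 1462, 76.4 and 324 after DHT. A mean over 15 antisense control probe sets was 6.30 and 6.29 at 1 h, 6.13 on the female 3 h array and 7.65 on the male 3 h array, against 6.66 to 7.58 on vehicle arrays. Alternatives other than the omission of single arrays included a fit with this level as a covariate. Over these alternatives the 1 h change with 8 arrays ran from -2.71 to -1.44 for Actb and from -3.02 to -1.50 for Klf13. The early change with 7 arrays ran from -2.09 to -0.69 for Actb and from -1.76 to -0.12 for Klf13. How much of either change goes with this level was not tested further. The sense control probe sets for beta-actin had 18892 to 23804 on DHT arrays and 12212 to 26784 on vehicle arrays. Over 1 h and 3 h together with 8 arrays, the probe set used for Klf13 differed by -1.31 and a second one by -0.26, and the probe set used for Actb differed by -1.46 and a second one by -1.86. The list of actin and serum response factor targets (20 tested) had 14 and 12 changes above 0 and medians of 0.13 and 0.06.

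No gene's response differed by sex past the adjusted threshold in limma, and 69 genes (1.39%) had an unadjusted p under 0.05. For Gadd45g the female response minus the male one was -0.31 ± 0.45 with 8 arrays and -0.26 with 7. The leading genes were Chst3 (2.82 ± 0.71), a chondroitin sulphotransferase gene, Sh3bp1 (2.20 ± 0.59), Mmp9 (-2.06 ± 0.43) and 2210010C04Rik (-1.58 ± 0.42). With 7 arrays they had 3.26, 2.10, -2.06 and -1.52. Chst3 had 479 and 254 in vehicle males against 210 and 80.6 after DHT, and 76.4 and 70.8 in vehicle females against 299 and 191. Mmp9, a matrix-degrading protease gene, had 95.6 and 95.2 in vehicle males against 426 and 365, and 259 and 380 in vehicle females against 301 and 251. A second Mmp9 probe set of low signal had 23.6 to 41.2 on vehicle arrays and 20.3 to 42.9 on DHT arrays of both sexes. For 2210010C04Rik the female vehicle arrays had 1911 and 1915, and DHT arrays and male vehicle arrays had 404 to 1034. Without male vehicle replicate 1, which leaves the muscle-rich array as the sole male control, 1183 genes passed, 453 of them on the positive side.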

How the data were processed

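The authors deposited 1 linear intensity for each probe set and array, made with MAS5 (a version not given in the sources used here), per the submitters' processing notes. Each array had a mean of 500 after trimming 2% at each end, so levels are relative to the whole array. Of 12488 probe sets (66 controls), 10855 had 1 gene symbol. Each of 8251 genes was represented by its probe set of highest mean log2 signal. The 4950 genes above the 40th percentile of mean signal (182) were tested as log2(signal + 16), which understates changes of low genes. limma 3.58.1 in R 4.3.3, with eBayes and a trend, was fitted with sex and DHT (5 residual degrees of freedom with 8 arrays, 4 with 7), with each time as a level (4), and with a sex by DHT term. Tests were two-sided, adjusted by Benjamini-Hochberg. On simulated data with 200 genes changed 2-fold, 147 were recovered with 8 arrays and 199 with 7. Changes of 4-fold were all recovered in both. The simulation gave all genes the same spread (SD 0.371 with 8 arrays, 0.24 with 7) and no array that stood apart. Such rates therefore do not say what share of real changes was missed. Members and lists were chosen with earlier results of these data known. Genes were named by a rule: in each direction, the 6 (early), 3 (single times) or 2 (sex) smallest unadjusted p where fewer passed, members of the first 3 lists described, and those of other lists with the smallest p. Motif matches and array-order counts were computed as stated. Alternatives were other pseudocounts (1 and 64), filters, quantile normalization, probe set averaging, other covariates, all 16 arrays, and each array left out.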

Additional observations from a re-analysis of the deposited data

Results flagged for a closer look

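Single arrays that stood apart from the others of their group were sought among the 4 vehicle and the 4 early DHT arrays, by Dixon's test of the gap to the nearest array against the group's range, at its critical value. Of 150 groups of 4 values checked, 15 held such an array, and chance gives this in about 1 of 20 groups. Most of those found were male vehicle replicate 2, which had been singled out beforehand in part by its low Adipoq. It had the lowest vehicle signals of Adipoq (1946), Ccl6 (209), Gpsm3 (176), Hbb-b2 (1045), Igf1 (137), Lrg1 (714), Notch2 (141) and Plin2 (861), and the lowest mean level of adipocyte markers (9.94). It had the highest vehicle signals of Cops7a (1241) and Nampt (1379). Male vehicle replicate 1 had the highest vehicle signal of Ucp1 (350). The male 3 h array was the lowest of the DHT arrays for Mcl1 (1072) and Sgk1 (837), and the highest for the antisense control level (7.65).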

How the results depend on the processing

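Of 112 alternative counts of genes past the adjusted threshold, 107 were 0, as in the comparisons reported. With all 16 arrays in the fit 1 gene passed early with 8 arrays, 2 with 7 arrays and 1 at 3 h. After the muscle-rich array was taken out of that wider fit, an alternative added after seeing the data, as were the fits to 1 sex alone, 1 gene still passed at 3 h. Leaving out 1 array at a time gave 0 genes in every comparison other than the sex difference, which ranged from 0 to 1183 (without male vehicle replicate 1). The number at an unadjusted p under 0.05 in limma ranged from 24 to 402 over the alternatives of the 8-array comparison and from 50 to 382 with 7 arrays. Both were highest with the antisense control level as a covariate, where they were above the nominal share. The cause was not tested. The log2 change of 110 of 123 named results kept its sign throughout. In the early comparisons with 8 and 7 arrays these included Gadd45g (1.48 to 1.80), Errfi1 (0.77 to 1.02), Cebpd (0.73 to 1.00) and Gtf2f2 (-1.61 to -0.71). Size was less stable than sign, and leaving out 1 array kept 59 of the 123 within 1.5 times of the reported value. Of the others, the 7-array change of Nrip1 came down to 0.25, of Fosl2 to 0.26, of Map3k6 to 0.37 and of Ebf2 to -0.31. With the antisense level as a covariate the 7-array changes turned to -0.092 for Per1, -0.27 for Fos, -0.15 for Klf6, -0.051 for Dusp1, 0.018 for Nr1d1 and 0.16 for Adipoq, that of Pdk4 with 8 arrays to -0.38 and that of Fkbp5 at 1 h to -0.24. Averaging probe sets turned Fos to -0.0083. Female arrays alone gave -0.18 for Adipoq and 0.50 for Actn3, and male arrays alone -0.79 for Pdk4. In the wider fit without the muscle-rich array the 1 h changes were -0.062 for Mt2 and -0.32 for Mt1. Over the omission of single arrays the 7-array change of Mt1 ranged from -0.11 to 0.31, of Per1 from -0.14 to 0.57 and of Fos from -0.0009 to 0.60. With 8 arrays Adipoq ranged from -0.13 to 1.38, Pdk4 from -0.15 to 0.74 and Actn3 from -1.06 to 0.34. At 1 h Fkbp5 ranged from -0.033 to 0.26, Mt2 from -0.17 to 0.52 and Mt1 from -0.34 to 0.90. The causes of these reversals were not tested. No paired analysis was possible because the labels do not pair any DHT array with a vehicle array.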
